A study of Mus musculus with 36 samples.

Results

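The comparison described here is between DN2Kit+ thymocytes (DN2) and early thymic progenitors (ETP) whose title, ETPFlt3hi, gives a high level of Flt3, on 3 arrays each of the 36 in the series. The members are all arrays whose titles carry these names and whose values were normalized together, and every probe set that names exactly 1 gene was followed, 34945 of the 45101 on the array, standing for 18193 genes. Both populations were sorted from the thymus of C57BL6 mice of 1 week and both sexes, with no further allele or treatment given in the labels. Each sample was a pool from several mice, so an array does not stand for 1 animal, and the labels do not say whether the pools were made from separate litters or days. P-values therefore measure the spread between such samples, which may be technical in part. For p-values and SE alike, that spread is estimated over 15 arrays of 5 populations, including populations not compared here. The field for sample type carries the early thymic progenitor label for DN2 as well, so the groups rest on the titles and source names. Array values are read as log2 expression, called the level here, and each difference is the DN2 mean minus the ETP mean on that scale. In such bulk samples, fewer cells of a type and less RNA per cell cannot be told apart.

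Progenitors that enter the thymus still hold the options to become myeloid, dendritic, natural killer or B cells. Notch signals from the thymic epithelium, acting with interleukin-7 and Kit ligand, take them from the ETP stage to the DN2 stage, at which CD25 (the interleukin-2 receptor alpha chain) appears on the surface. Bcl11b and the genes of the CD3 complex come on during the DN2 stage, and rearrangement of the T cell receptor genes is mostly completed at the DN3 stage that follows.

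The 4 genes used to check the labels separated the populations on every array. Il2ra, which encodes CD25, had levels of 12.24, 12.20 and 12.36 in DN2, against 5.48, 4.67 and 5.25 in ETP. Flt3, the receptor for Flt3 ligand and part of the ETP gate, had levels of 4.47, 3.46 and 3.68 in DN2, against 9.53, 9.88 and 9.19 in ETP. Bcl11b and Cd3g, given in full below, were near the low end of the scale in ETP and close to 12 in DN2. Kit, the stem cell factor receptor in the DN2 gate, had levels of 7.75, 7.42 and 7.74 in DN2 and 8.24, 8.19 and 8.43 in ETP. Its difference of -0.65 ± 0.16 (SE) had an adjusted p of 0.0499 and stayed under the 2-fold minimum for a call. The arrays correlated at 0.987 to 0.989 within DN2, 0.985 to 0.986 within ETP and 0.968 to 0.974 between them, and for each of the 15 arrays normalized together the nearest array was of the same population. With no read depth to go by, the precision rests on the number of arrays.

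The genes of the CD3 complex and the pre-T receptor had the highest median difference of the 27 lists. These genes encode the signalling chains that carry the T cell receptor and its precursor form to the surface. Of 13 listed members 6 were measured, and 4 of them rose in DN2 (Cd3g, Cd3e, Ptcra and Cd3d) while none fell. A call, here and below, needs an adjusted p under 0.05 in limma (Benjamini-Hochberg, over all probe sets) and a difference of at least 1, which is 2-fold. Over all genes 2.65% were called, 1.32% higher and 1.33% lower. The median difference of the list was 3.66, against -0.02 over all genes.

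Cd3g, which encodes the gamma chain of CD3, had the largest difference of any gene on this scale. Its level was 12.02, 12.37 and 12.41 in DN2, against 4.31, 4.70 and 3.78 in ETP. The difference was 8.01 ± 0.21 (SE from the shared spread, n = 3 arrays each), with an adjusted p of 4.68e-11 in limma. The ETP mean of 4.26 is near those of LSK marrow progenitors (3.90) and haematopoietic stem cells (HSC, 3.97), so the size of the rise is limited by the low end of the scale. The same holds for other genes near that end in either population, and differences in size between such genes are not ranked further. Cd3e, the epsilon chain, had levels of 10.22, 10.67 and 10.25 in DN2 and 4.98, 5.02 and 5.21 in ETP, a difference of 5.31 ± 0.20. Cd3d, the delta chain, had levels of 7.87, 8.67 and 8.04 in DN2 and 4.96, 5.03 and 4.56 in ETP, a difference of 3.35 ± 0.24. The arrays of all 6 measured members, the 3 chains among them, did not overlap between the populations, with DN2 higher. Over all genes, 10.9% did not overlap with DN2 higher and 11.7% with DN2 lower. Ptcra, the invariant chain of the pre-T receptor, had levels of 7.09, 7.89 and 8.53 in DN2, against 4.25, 3.58 and 3.74 in ETP, and was the most uneven of the 4 among the DN2 arrays. The other 2 measured members were not called by the probe set that stands for each gene. In limma Cd247, the zeta chain, differed by 0.15 (adjusted p = 0.827) and the variable segment Trbv1 by 0.53 (adjusted p = 0.448). Counting any probe set of a gene, 5 members of the list were called higher and none lower. Another probe set of Cd247 or Trbv1 was therefore called higher.

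The 3 CD3 genes lie side by side, and the stretches around their start sites are shown because the genes rose together. The start sites of Cd3g and Cd3d, on opposite strands, are 1355 bases apart, and that of Cd3e lies 27825 bases beyond Cd3d. Each sequence below runs from 250 bases before the start site to 50 after, from RefSeq on GRCm38.p6, as a description that the arrays did not measure. Capitals mark motifs on either strand, searched as CTTTGA for the TCF factors, TGTGGT for the Runx factors, GTGGGAA for RBPJ and AGATAA for the factors named after it. TCF and RBPJ stand downstream of Wnt and Notch signals. The Cd3g window is chr9:44980382-44980681 (minus strand), the Cd3d window chr9:44981536-44981835 (plus strand), and the Cd3e window chr9:45009562-45009861 (minus strand). The Bcl11b window, chr12:108003365-108003664 (minus strand), is shown beside them as that of the transcription factor gene with the largest rise.
Cd3g: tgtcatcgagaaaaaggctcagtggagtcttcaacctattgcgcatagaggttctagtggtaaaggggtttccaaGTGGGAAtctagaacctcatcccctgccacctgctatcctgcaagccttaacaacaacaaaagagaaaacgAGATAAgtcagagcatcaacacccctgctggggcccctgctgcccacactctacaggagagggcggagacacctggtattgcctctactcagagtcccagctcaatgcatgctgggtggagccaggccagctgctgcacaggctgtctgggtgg
Cd3d: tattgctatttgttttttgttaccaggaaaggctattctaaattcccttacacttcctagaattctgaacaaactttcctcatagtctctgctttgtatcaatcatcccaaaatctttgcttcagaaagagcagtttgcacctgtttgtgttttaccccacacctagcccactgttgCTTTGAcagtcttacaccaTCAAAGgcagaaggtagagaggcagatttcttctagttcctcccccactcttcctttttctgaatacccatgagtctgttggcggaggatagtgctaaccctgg
Cd3e: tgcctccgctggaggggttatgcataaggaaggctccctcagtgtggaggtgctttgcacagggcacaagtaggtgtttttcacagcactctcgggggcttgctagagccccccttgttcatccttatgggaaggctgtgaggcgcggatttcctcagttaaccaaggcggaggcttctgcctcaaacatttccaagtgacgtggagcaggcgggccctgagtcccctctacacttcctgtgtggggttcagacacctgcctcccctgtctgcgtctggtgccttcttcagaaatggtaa
Bcl11b: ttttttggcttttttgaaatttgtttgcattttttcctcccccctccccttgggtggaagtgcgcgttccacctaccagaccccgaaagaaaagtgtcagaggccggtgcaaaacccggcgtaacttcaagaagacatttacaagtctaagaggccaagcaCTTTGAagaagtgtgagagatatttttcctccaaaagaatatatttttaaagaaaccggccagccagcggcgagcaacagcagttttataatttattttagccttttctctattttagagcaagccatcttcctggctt
The Cd3d window holds a pair of TCF motifs, at -73 and -54 from the start site, and the Bcl11b window a single match at -89. The Cd3g window holds an RBPJ motif at -175 and a GATA motif at -104, and the Cd3e window none of these letters. CTTTGA is in 14.5% of the windows of genes that rose, 13.2% of those of genes that fell and 13.6% of all windows of the same length. GTGGGAA is in 6.7%, 5.8% and 6.4%, and AGATAA in 8.9%, 7.4% and 8.1% of the same groups. For each of these motifs the shares of the 3 groups lie close together. TGTGGT was found in 14.5% of the windows of genes that rose, 18.5% of those of genes that fell and 13.7% of all windows, and the E box CANNTG in 68.2%, 72.0% and 67.0%. The windows matched 179 of the 240 genes that rose, 189 of the 242 that fell and 14452 of all 18193 genes.

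**Figure D1:**
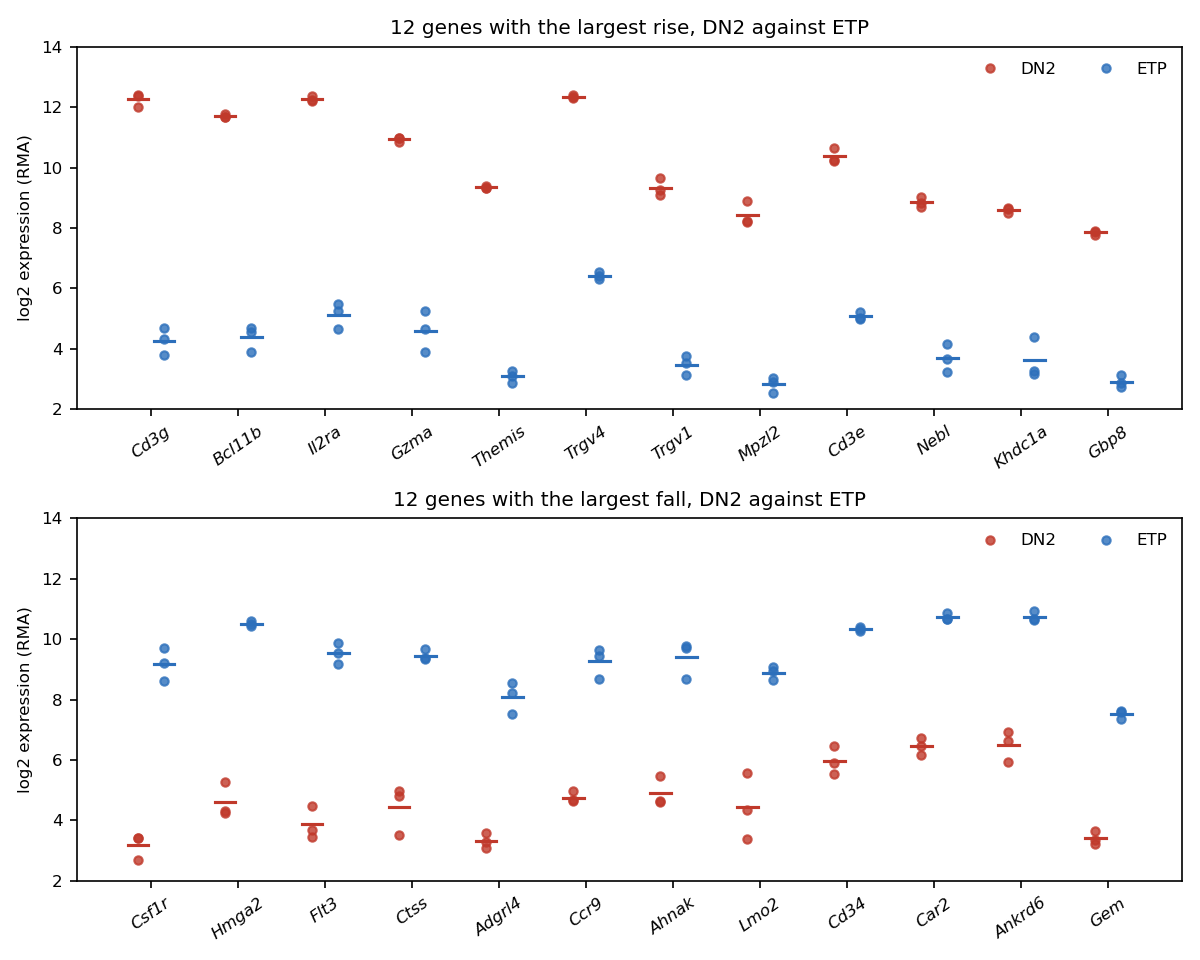
Levels (log2 expression) of the 12 genes with the largest rise (upper panel) and the 12 with the largest fall (lower panel), with a point for each array, DN2 in red at left and ETP in blue at right of each pair, and a line at the mean of 3 arrays. In the upper panel Cd3g lies between 12.02 and 12.41 in DN2 and between 3.78 and 4.70 in ETP, and in the lower panel Csf1r lies between 2.68 and 3.43 in DN2 and between 8.62 and 9.70 in ETP.

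Across all genes, 240 rose and 242 fell. Of these, 83 rose and 93 fell by at least 4-fold, and 21 rose and 12 fell by at least 16-fold. The arrays were normalized together, so the near-equal totals are not read as a property of the step. The quartiles of the difference over all genes were -0.17 and 0.14, and the median SE was 0.19. Over single probe sets 2.33% were called, of which 418 rose (1.2% of those tested) and 396 fell (1.13%). Among called genes, 263 had several probe sets, and in 77 of them all were called.

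**Figure D2:**
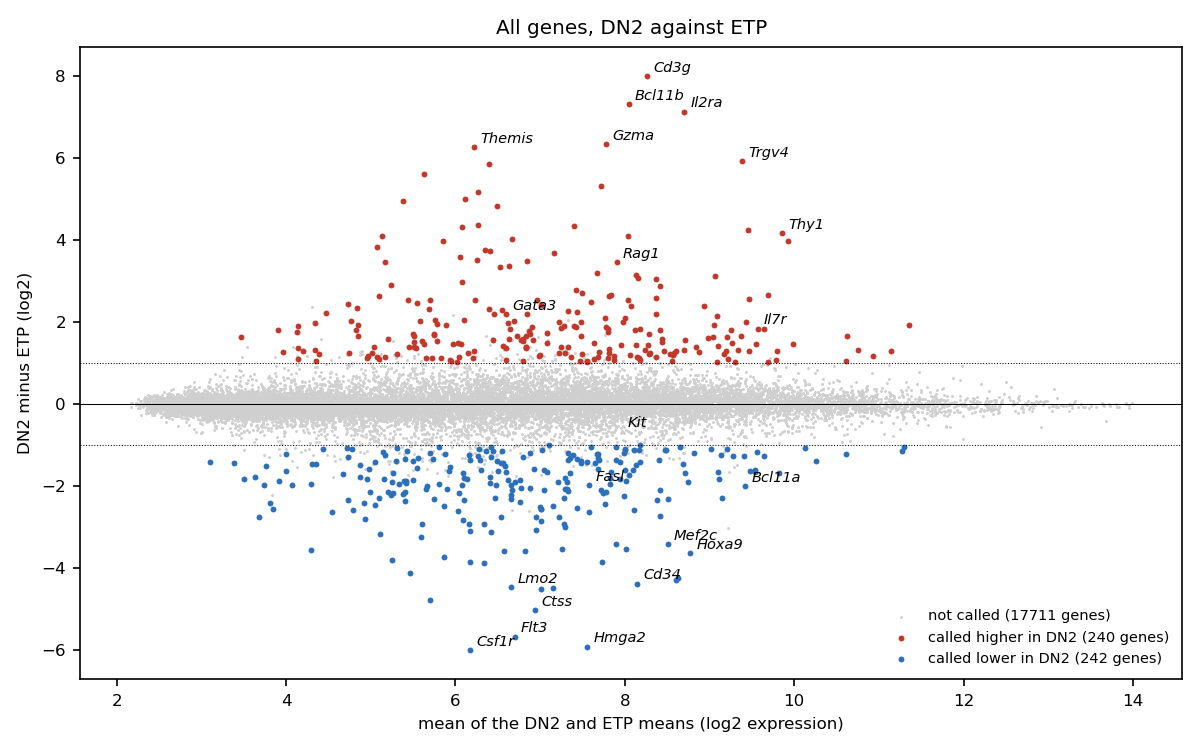
Difference (DN2 minus ETP, log2) of each gene against the mean of its DN2 and ETP levels (log2 expression), with the 240 genes called higher in DN2 in red, the 242 called lower in blue and the others in grey; dotted lines mark a difference of 1 and of -1. Cd3g stands highest at 8.01 and Csf1r lowest at -6.00, and Kit lies inside the dotted lines at -0.65.

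Besides the CD3 genes, the largest rises included surface and signalling genes of T cells. Gzma, a serine protease of cytotoxic granules, had levels of 10.99, 10.86 and 11.00 in DN2, against 5.27, 4.66 and 3.89 in ETP. Themis, which tunes T cell receptor signalling, had levels of 9.33, 9.39 and 9.33 in DN2, against 3.10, 2.87 and 3.27 in ETP. For both genes the DN2 arrays lay close together and far above every ETP array. Trgv4 and Trgv1, variable segments of the gamma T cell receptor locus, differed by 5.93 ± 0.16 and 5.86 ± 0.17. Probes for such segments can bind related family members, so which segment gave the signal is uncertain. Mpzl2, an adhesion molecule of the immunoglobulin family, differed by 5.62 ± 0.21. Nebl, an actin-binding protein, differed by 5.18 ± 0.26, and Gbp8, of the guanylate-binding protein family, by 4.95 ± 0.37. Khdc1a had levels of 8.51, 8.67 and 8.64 in DN2 and 3.27, 3.18 and 4.39 in ETP.

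T cell surface and proximal signalling genes moved both ways. Of 24 measured, 8 rose and 3 fell in DN2, with a median difference of 0.42. Themis led, followed by Trat1, an adaptor bound to the T cell receptor, at 4.38 ± 0.29, and Thy1, the surface marker of T cells, at 4.16 ± 0.45. Thy1 had levels of 11.84, 12.14 and 11.85 in DN2 and 8.37, 7.21 and 7.76 in ETP. Ctla4, an inhibitory receptor, rose by 2.98 ± 0.47, Sh2d1a, the adaptor SAP, by 2.34 ± 0.21, and Lat, the membrane scaffold of receptor signalling, by 2.15 ± 0.14. Cd96 (1.67) and Prkcq, protein kinase C theta (1.56), were the other 2 called higher. Gimap4, a GTPase of lymphocytes, fell by 3.17 ± 0.22, and Cd7, a surface protein of early lymphoid cells, fell by 2.08 ± 0.18. Icos, at a difference of -1.44, was also called lower. The kinase genes Zap70 (0.31), Fyn (-0.50), Syk (-0.54) and Txk (0.45) were not called, nor was Cd28 (1.29 ± 0.98, adjusted p = 0.761), whose arrays overlapped.

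Among 20 measured transcription factors of T cell commitment, 5 rose in DN2 (6 by any probe set of a gene) and none fell. Bcl11b, required for T cell commitment, had levels of 11.67, 11.77 and 11.68 in DN2, against 3.91, 4.70 and 4.56 in ETP. The difference was 7.32 ± 0.17 (adjusted p = 2.44e-11 in limma), from an ETP mean of 4.39 that lay near those of LSK (3.81) and HSC (3.96), and all 4 of its probe sets were called higher, at differences of 2.01 to 7.32. Gata3, needed from the earliest thymic stages, had levels of 7.83, 7.75 and 7.51 in DN2 and 5.80, 5.21 and 5.48 in ETP, with an adjusted p of 0.00903 in limma. Ets1 rose by 1.83 ± 0.15, Tcf12 (the E protein HEB) by 1.31 ± 0.16 and Spib, an Ets factor, by 1.09 ± 0.12. Runx1 differed by 0.92 ± 0.14 with an adjusted p of 0.00167, under the 2-fold minimum. Lef1 (0.79 ± 0.22, adjusted p = 0.0895) and Ets2 (1.07 ± 0.28, adjusted p = 0.0608) missed the threshold with arrays that did not overlap. Ikzf1 (-0.17), Tox (-0.09), Satb1 (-0.29) and Runx3 (-0.12) had small differences. The median of the list was 0.32.

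The regulators of stem and progenitor cells that are silenced around commitment moved the other way. Of 23 measured, none rose and 7 fell in DN2, with a median of -0.50. Lmo2, a bridge protein of progenitor transcription complexes, had levels of 5.55, 4.35 and 3.38 in DN2, against 9.07, 8.94 and 8.64 in ETP. The DN2 arrays were the more scattered, yet all of them lay below the lowest ETP array. Hoxa9, a homeobox factor of progenitors, had levels of 6.72, 6.82 and 7.34 in DN2, against 10.67, 10.65 and 10.45 in ETP. Mef2c, a factor of lymphoid and myeloid progenitors, fell by 3.42 ± 0.24, and Meis1, a partner of Hox factors, fell by 2.55 ± 0.35. Bcl11a fell by 1.99 ± 0.24 and Hhex fell by 1.61 ± 0.15. Mycn fell by 1.26 ± 0.28, with an adjusted p of 0.0211 in limma. That call was lost in 5 of the 6 fits that left out an array. Lyl1 (-0.43), Erg (-0.55), Tal1 (-0.50) and Gfi1b (-0.73) were not called. Spi1, which encodes PU.1, had levels of 6.21, 6.47 and 6.71 in DN2 and 7.40, 8.05 and 7.17 in ETP. Its difference of -1.08 ± 0.38 missed the threshold (adjusted p = 0.216).

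Notch receptors, modulators and targets did not move as a block. Of 25 measured, 6 rose and 1 fell in DN2, with a median of 0.05, and 3 of the 6 (Il2ra, Cd3e and Ptcra) stand on other lists too. The product of Il2ra, CD25, marks the DN2 stage itself. Notch3, a receptor that is itself a Notch target in thymocytes, had levels of 7.58, 7.92 and 7.61 in DN2 and 5.89, 5.26 and 5.88 in ETP. Dtx1, a modulator of Notch induced by the pathway, differed by 1.38 ± 0.27, and its other probe set by -0.08. Dtx1 lost its call in 3 of the 6 fits that left out an array. Deptor, an inhibitor of mTOR, differed by 1.08 ± 0.27, with an adjusted p of 0.045. Its call was lost in all 6 such fits. Rgs1, a regulator of G protein signalling placed on this list, fell by 3.52 ± 0.42. Notch1 (0.28), Hes1 (0.16), Hes5 (0.05), Nrarp (-0.22), Rbpj (-0.01) and Myc (-0.10) had small differences. Notch2 differed by -0.92 ± 0.13 with an adjusted p of 0.000635, under the 2-fold minimum.

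Receptors for cytokines and growth factors were exchanged: 5 of 28 measured rose and 6 fell in DN2. The list holds the receptors and their inhibitors of the Socs family. Il2ra rose by 7.13 ± 0.20, and both of its probe sets were called. Its product CD25 marks the DN2 stage, so this rise goes with the naming of the populations. Il17rb, a receptor for interleukin-25, had levels of 10.67, 10.63 and 10.57 in DN2, against 7.63, 7.50 and 7.39 in ETP. Il7r, the interleukin-7 receptor alpha chain, had levels of 10.46, 10.45 and 10.56 in DN2, against 8.66, 8.93 and 8.35 in ETP, a difference of 1.84 ± 0.20. The signalling inhibitor Socs2 (1.65) and Ifngr1 (2.82-fold) were the other 2 called higher. Csf1r, the receptor for macrophage colony-stimulating factor, had the most negative difference of any gene, with levels of 2.68, 3.43 and 3.41 in DN2, against 9.21, 9.70 and 8.62 in ETP. Its difference of -6.00 ± 0.79 had an adjusted p of 0.000457 in limma, and its DN2 mean of 3.17, equal to that in DN3, is below the lower quartile of the arrays. Its other 2 probe sets differed by -2.32 (called) and -0.87 (not called). Flt3 fell by 5.67 ± 0.29, which the ETP gate itself selects for. Il1r1 fell by 3.57 ± 0.36, Il18r1 fell by 3.23 ± 0.35, Csf2rb, the shared beta chain of the receptors for interleukin-3 and GM-CSF, fell by 2.37 ± 0.28, and Il6ra (-1.31) was also called lower. The median of the list was -0.53.

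Of 11 measured genes of V(D)J recombination, which rearranges antigen receptor genes, 2 rose and none fell. Rag1, a subunit of the recombinase, had levels of 9.38, 9.75 and 9.78 in DN2, against 6.58, 6.08 and 5.86 in ETP. Lig4, the ligase that seals the breaks, had levels of 7.89, 8.45 and 8.34 in DN2 and 4.40, 4.60 and 4.38 in ETP. Rag2, the partner of Rag1, differed by 0.66 and Dntt, terminal transferase, by 0.89 ± 0.36, and neither was called. The median was 0.42.

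Myeloid and antigen-presentation genes held some of the deepest falls, although most members of their lists were not called. Of 27 measured granulocyte and monocyte genes, 1 rose and 3 fell (5 with all 36 arrays fitted), with a median of -0.12. The 3 that fell were Csf1r, Cd33, an inhibitory lectin of myeloid cells (-3.57 ± 0.25), and Tyrobp, the adaptor DAP12 (-1.37 ± 0.30). Mpo, myeloperoxidase, had levels of 7.83, 7.65 and 7.63 in DN2, against 10.79, 10.38 and 11.00 in ETP. Its arrays did not overlap, yet its difference of -3.02 ± 1.00 missed the threshold (adjusted p = 0.181 in limma), with the spread taken over all 15 arrays. The SD of Mpo was 0.11 in DN2 and 0.32 in ETP, but 3.12 in HSC, which is not compared here. Fcer1g, a signalling chain of Fc receptors, rose by 1.38 ± 0.29. The call of Tyrobp was lost in all 6 fits that left out an array. That of Fcer1g was lost in 4 of them, without DN2 replicate 2 or 3 and without ETP replicate 1 or 2, and no granulocyte and monocyte gene was then called higher. Elane (0.06), S100a8 (0.14), Cebpa (-0.17) and Itgam (-0.19) had small differences. Of 9 measured MHC class II genes none rose and 2 fell (3 by any probe set of a gene), with a median of -0.75. The 2 were H2-Ob, which had levels of 5.80, 5.50 and 5.43 in DN2 and 7.97, 8.57 and 8.41 in ETP, and H2-DMa (-1.31 ± 0.16), both of the peptide-loading machinery. Cd74, the invariant chain, differed by -1.32 (adjusted p = 0.061). Ctss, the cathepsin that trims this chain, was on no list and fell by 5.02 ± 0.33. Among 14 dendritic cell genes 1 rose (Ly6d) and 1 fell (Flt3; 2 with all 36 arrays), with a median of -0.29, and Itgax (-0.28), Batf3 (-0.07) and Siglech (0.06) were not called.

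Natural killer, innate lymphoid and cytotoxic genes split into both directions. Of 28 measured, 3 rose (4 by any probe set of a gene) and 6 fell, with a median of -0.08. Gzma, Il17rb and Fcer1g rose. Fasl, the death ligand of cytotoxic cells, had levels of 5.87, 6.93 and 6.99 in DN2, against 8.47, 8.66 and 8.56 in ETP. The interleukin-18 receptor chains fell, Il18r1 as given and Il18rap with a difference of -2.55 ± 0.21. Klrd1 (CD94) fell by 1.82 ± 0.35 and Nfil3, a factor of innate lymphoid development, fell by 1.77 ± 0.27. Klrd1 had an adjusted p of 0.0633 when the 6 DN2 and ETP arrays were fitted alone. Prf1, perforin (0.37), Gzmb (0.53), Nkg7 (-0.22), Tbx21 (0.00), Ncr1 (-0.15) and Zbtb16 (0.21) were not called by the probe set that stands for each gene.

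Of 22 B lineage genes 3 rose and 2 fell, with a median of -0.03. Pou2af1, a coactivator of octamer factors, had levels of 6.98, 6.48 and 7.27 in DN2, against 3.35, 3.57 and 3.38 in ETP. Ly6d, a surface protein of lymphoid progenitors, rose by 2.39 ± 0.29, and Rag1 stands on this list too. Ighm fell by 1.90 ± 0.29 and Bank1, a B cell adaptor, fell by 1.87 ± 0.26. Averaged over its probe sets Ighm differed by -0.45 and was not called. Pax5 (-0.09), Ebf1 (-0.13), Cd79a (-0.24) and Vpreb1 (0.62), which define B cells and their precursors, were not called.

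Of 21 measured stem cell genes 1 rose and 3 fell (4 by any probe set of a gene), with a median of -0.22. Cd34, a surface marker of progenitors, had levels of 6.47, 5.52 and 5.89 in DN2, against 10.27, 10.41 and 10.32 in ETP. Meis1 was given above, and Procr (-1.06 ± 0.21) lost its call in 3 of the 6 fits that left out an array. Mllt3, a reader of acetylated chromatin, rose by 2.20 ± 0.14 by its probe set of the highest mean. By its most variable probe set Mllt3 differed by 1.76 (adjusted p = 0.184), and no stem cell gene was then called higher. Car2, carbonic anhydrase 2, was the single call among 17 megakaryocyte and erythroid genes (median 0.05), with levels of 6.48, 6.74 and 6.17 in DN2, against 10.67, 10.88 and 10.67 in ETP. Gata1 (0.40), Klf1 (0.47) and Pf4 (0.08) were not called. Of 9 genes of a fetal type 1 fell, Hmga2, a chromatin protein of fetal stem cells, with levels of 4.32, 4.23 and 5.27 in DN2, against 10.49, 10.60 and 10.45 in ETP. The difference was -5.91 ± 0.23 (adjusted p = 2.35e-09 in limma), and all 4 of its probe sets were called lower. Lin28b (-0.07), which acts on Hmga2 through let-7, and Igf2bp1 (-0.07) and Igf2bp3 (-0.54) were not called, and the median was -0.07.

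Of 22 homing and adhesion genes 1 rose and 3 fell, with a median of -0.18. Ccr9, the receptor for the thymic chemokine CCL25, had levels of 4.66, 4.96 and 4.64 in DN2, against 9.45, 9.66 and 8.68 in ETP, and 3 of its 5 probe sets were called lower. Cd44, the hyaluronan receptor, fell by 2.13 ± 0.31. The integrin genes Itga4 (1.29 ± 0.16, called higher) and Itgb7 (-1.59 ± 0.37, called lower), whose products pair, went in opposite directions, and Itgb7 lost its call in all 6 fits that left out an array. Cxcr4 (0.35), Selplg (0.19) and Itgb1 (-0.01) were not called. Of the remaining large falls, Adgrl4, an adhesion receptor, fell by 4.78 ± 0.23 and Ahnak, a very large scaffold protein, fell by 4.49 ± 0.41. Ankrd6 fell by 4.24 ± 0.29 and Gem, a small GTPase, fell by 4.11 ± 0.41. The other 3 probe sets of Ahnak differed by -0.46 to -0.09 and were not called.

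**Figure D3:**
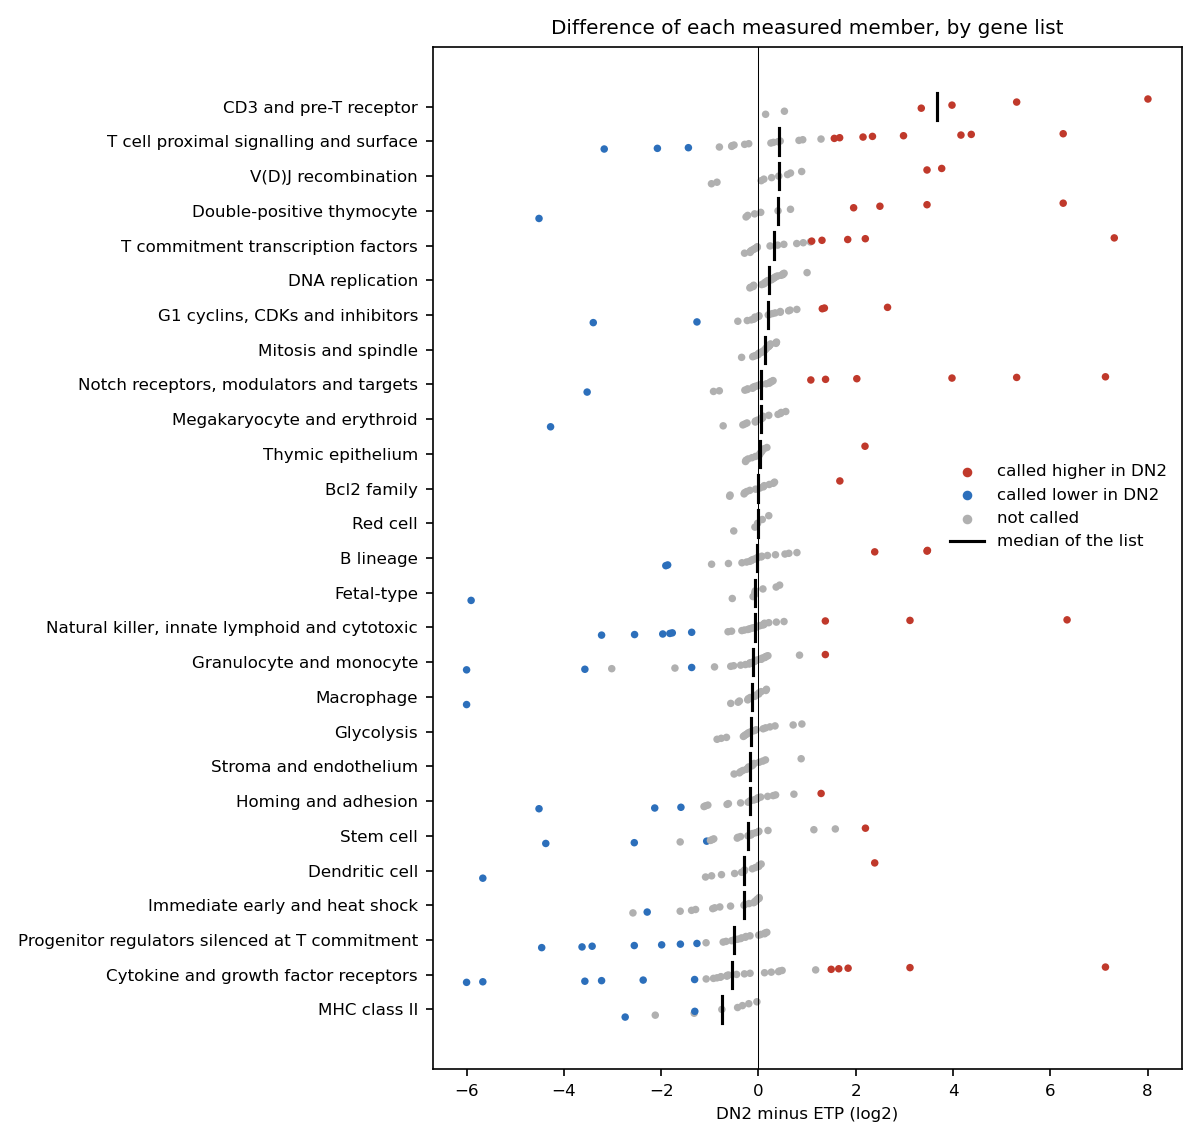
Difference (DN2 minus ETP, log2) of each measured member of the 27 gene lists, a point for each gene, red where called higher in DN2, blue where called lower and grey where not called, with a black bar at the median of each list. The CD3 and pre-T receptor list has the highest median, 3.66, and MHC class II the lowest, -0.75, while most other lists hold single genes far from a median near 0.

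Genes of cell division held no calls, and many of those of DNA replication had small differences above 0. No member of 24 DNA replication genes or 25 mitosis genes was called in limma, and 5 and 1 of them had an unadjusted p under 0.05, against 12% of all genes. In the replication list 12 genes had every DN2 array above every ETP array and 1 the reverse, against 10.9% and 11.7% of all genes. In the mitosis list 1 gene did so in each direction. The mean level of the replication list was 9.78 to 9.82 in DN2 and 9.46 to 9.67 in ETP, and with all 36 arrays fitted 1 of its genes was called higher. Their medians were 0.22 and 0.13, and their differences ran from -0.18 to 1.00 and from -0.35 to 0.37. Mki67, a marker of cycling cells, differed by 0.08. Rrm2, a subunit of ribonucleotide reductase (0.53), and Rfc4, of the clamp loader (0.51, adjusted p = 0.0605), had the smallest p of the replication list, and Ndc80 (0.37) and Bub1 (-0.35), both of the kinetochore, those of the mitosis list. Of 23 regulators of G1, 3 were called higher and 2 lower (median 0.20), and most of these calls depended on the fit. In a stricter test against 1.5-fold (treat), 0 were higher and 1 was lower. Ccnd1, cyclin D1, had levels of 6.25, 6.24 and 6.10 in DN2, against 9.46, 9.65 and 9.66 in ETP. Ccnd3, cyclin D3, had levels of 8.48, 8.90 and 8.11 in DN2, against 7.13, 7.35 and 6.94 in ETP, while its other 2 probe sets (0.65 and 0.43) were not called. Ccnd2 (-0.42) was not called. Cdkn1a, the inhibitor p21, had levels of 9.06, 9.33 and 9.09 in DN2, against 5.62, 6.63 and 7.27 in ETP, and E2f2, a cell cycle factor, differed by 1.31 ± 0.31 and lost its call in 4 of the 6 fits that left out an array. Without DN2 replicate 2 or without ETP replicate 1, only Ccnd3 of the G1 regulators was called higher. Mycn, the second call lower, was given above. Of 14 Bcl2 family genes 1 rose, Bcl2 itself, with levels of 11.23, 11.74 and 11.40 in DN2 and 10.07, 9.57 and 9.72 in ETP, and all 5 of its probe sets were called. Mcl1 (-0.30), Bcl2l1 (0.03) and Bcl2l11 (-0.58) were not called, and the median was -0.01. None of 17 glycolysis genes was called in limma (median -0.15), and 5 had an unadjusted p under 0.05. Pfkp, a phosphofructokinase, differed by 0.89 (adjusted p = 0.0634) and the glucose transporter gene Slc2a3 by -0.85 (adjusted p = 0.0564). With the mean of its probe sets Pfkp differed by 1.10 and was called higher (adjusted p = 0.00416).

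Markers of other cells of the thymus were followed for both populations. Of 11 genes of CD4+CD8+ thymocytes 4 rose (Themis, Rag1, Arpp21 and Aqp11), 1 fell (Ccr9) and the median was 0.40, or 0.65 without ETP replicate 1 and 0.15 without ETP replicate 2. The mean level of the list was 6.91 to 7.06 in DN2 and 5.94 to 6.20 in ETP. Its defining members Cd4 (-0.22), Cd8a (-0.26) and Cd8b1 (-0.08) were not called. Of 13 thymic epithelial genes only Epcam, which thymocytes also express, was called, with levels of 7.58, 7.63 and 7.44 in DN2 and 5.25, 5.18 and 5.65 in ETP (list median 0.03). Foxn1 (0.05) and Krt5 (-0.26) were not called. Of 14 macrophage genes only Csf1r was called (median -0.12), 6 members were below the lower quartile of the array on all 6 arrays, and the mean level was 4.18 to 4.35 in DN2 and 4.81 to 4.84 in ETP. C1qa (-0.17) and Adgre1 (-0.05) were not called. No gene of 14 of stroma and endothelium or of 5 of red cells was called in limma (medians -0.17 and -0.02). Of these, 2 and 0 had an unadjusted p under 0.05, against 12% of all genes. Among them Pecam1 (0.88), Dcn (-0.50), Hbb-b2 (-0.51) and Alas2 (0.21) had the smallest p. The part of other cells in the differences was not tested.

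Immediate early and heat shock genes, which can respond to handling, were scattered among the ETP arrays. Of 19 measured, 1 was called, Zfp36, which destabilizes mRNAs of early response genes, and the median was -0.30, or -0.58 without DN2 replicate 2. Zfp36 had levels of 8.43, 7.14 and 8.44 in DN2, against 9.80, 9.77 and 11.31 in ETP, and an adjusted p of 0.0517 when the 6 arrays were fitted alone. The mean level of the list was 6.33 to 6.83 in DN2 and 6.92 to 7.89 in ETP. ETP replicate 3 was the highest for Fos (7.65, 6.84 and 9.40 in ETP), Egr1 (5.39, 5.67 and 7.84) and Nr4a1 (4.44, 5.14 and 8.09), none of which was called. The part of these genes in other results was not tested. Without ETP replicate 3, 438 genes were called in all, of which 406 are among the 482.

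The arrays of LSK, the bone marrow population LSKFlt3hi IL7R+, and of DN3 thymocytes, 3 each and normalized with DN2 and ETP, place the values along the path from marrow to thymus. They are given as levels, with no test, since they were not part of the comparison, and lowest and highest refer to these 4 populations. Some genes were close to their DN3 level in DN2. Cd3g averaged 3.90 in LSK, 4.26 in ETP, 12.27 in DN2 and 12.70 in DN3, and Bcl11b 3.81, 4.39, 11.70 and 12.22 in the same order. Others lay between ETP and DN3. Cd3d averaged 4.36 in LSK, 4.85 in ETP, 8.20 in DN2 and 11.93 in DN3, and Ptcra 3.68, 3.86, 7.84 and 11.59. Lef1, a partner of beta-catenin in T cells, was late, at 6.21 in LSK, 6.45 in ETP, 7.23 in DN2 and 11.62 in DN3. Among genes lower in DN2, Flt3 averaged 10.65 in LSK, 9.53 in ETP, 3.87 in DN2 and 3.85 in DN3. Hhex averaged 10.02 in LSK, 10.34 in ETP, 8.73 in DN2 and 4.21 in DN3, and Lyl1, not called here, 3.98 in DN3 beside 8.39 in DN2. Rag1 had its lowest mean in ETP, at 9.48 in LSK, 6.17 in ETP, 9.64 in DN2 and 12.17 in DN3. Fasl had its highest mean in ETP, at 3.49 in LSK, 8.56 in ETP, 6.60 in DN2 and 3.72 in DN3. Ccr9 was lowest in DN2, at 7.97 in LSK, 9.26 in ETP, 4.75 in DN2 and 6.68 in DN3. Pou2af1 was highest in DN2 among these 4, at 5.83 in LSK, 3.44 in ETP, 6.91 in DN2 and 4.05 in DN3.

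**Figure D4:**
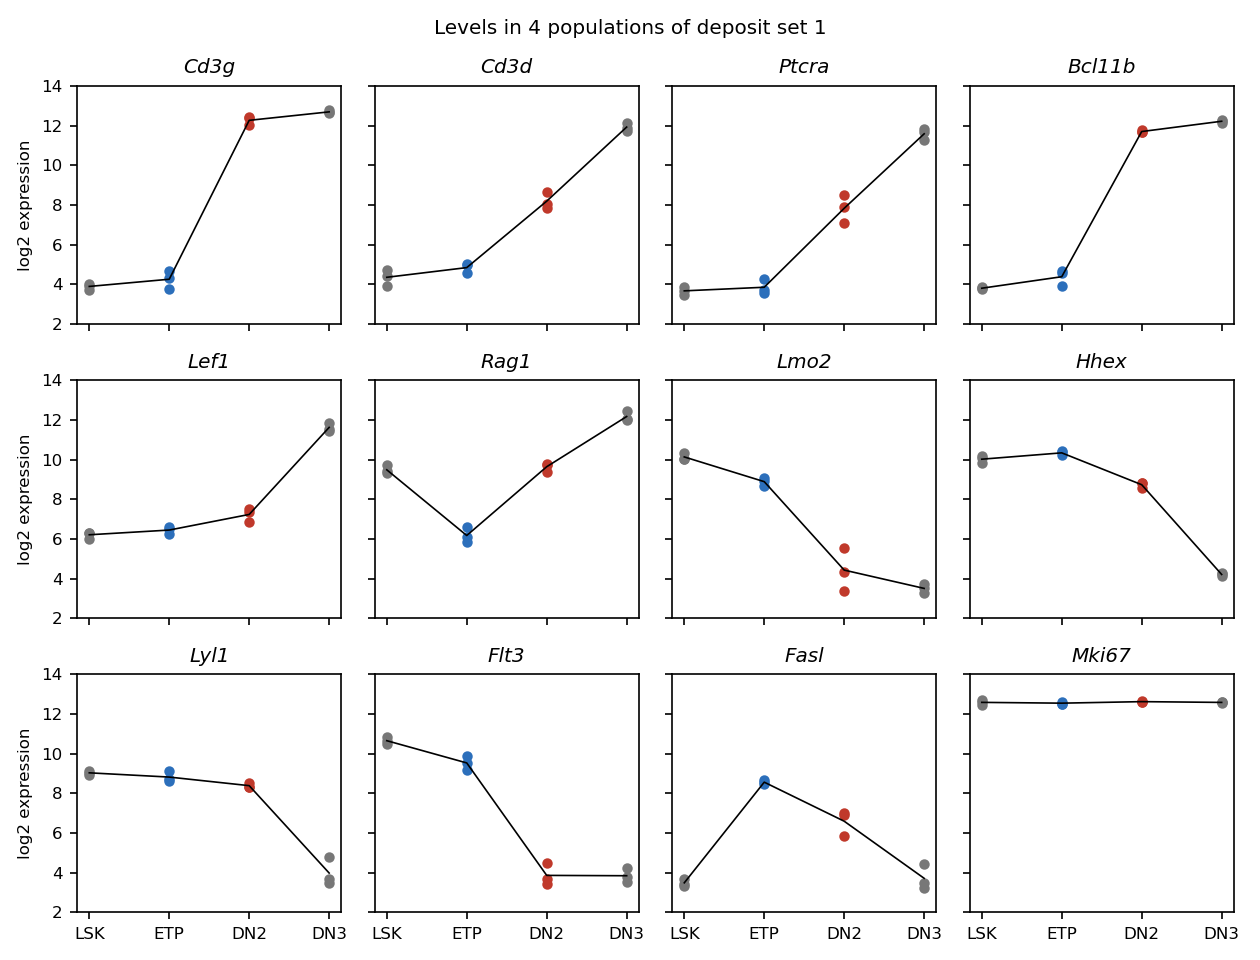
Levels (log2 expression) of 12 genes in LSK, ETP (blue), DN2 (red) and DN3, with a point for each of 3 arrays and a line through the means. Cd3g and Bcl11b reach about their DN3 level in DN2, Cd3d, Ptcra and Rag1 lie between ETP and DN3, Lef1 is near its ETP level in DN2, Flt3 and Lmo2 are low from DN2 on, Hhex and Lyl1 drop mainly between DN2 and DN3, Fasl is highest in ETP among these 4 and Mki67 is level throughout.

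Called genes were in part neighbours in the genome. Among 18145 measured genes placed in order in RefSeq, 47 of 239 genes that rose stood beside another that rose, in 21 runs, and 22 of 242 that fell stood beside another that fell, in 11 runs. Over all genes 1.32% rose and 1.33% fell. How many neighbours these shares alone would give was not worked out. The longest run holds 4 genes on chromosome 9, Cd3g, Cd3d, Cd3e and Mpzl2. Runs of 3 higher genes were Abcg3, Gbp8 and Gbp6; Il17rb, Chdh and Cacna1d; and Dhx40, Ypel2 and Gdpd1. Pairs included Trgv4 with Trgv1 and Stat5a with Stat3 among genes that rose, and Il18r1 with Il18rap and Gimap4 with Gimap6 among those that fell. In the windows around the start sites, genes that fell had a median of 12 CpG dinucleotides, those that rose 17, and all genes 17. Windows with at most 5 CpG made up 33.9% for genes that fell, 23.5% for those that rose and 22.1% of all. These counts are descriptions of the called genes, with no test.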

How the data were processed

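RNA from sorted cells was extracted with Trizol, amplified (WT-Ovation Pico), labelled with biotin and hybridised to 1-colour mouse arrays, per the labels. Per the submitters' processing notes, the deposited values were made with RMA (a method of background correction, normalization and probe summary), and they are read as log2. The log base and the RMA version are not given in the sources used here. Only the 15 arrays normalized together with DN2 and ETP entered the fit (DN2, ETP, DN3, LSK and HSC, 3 each), since the array medians of the other 21 differ (5.12 to 5.22 against 5.84 to 5.95). No 2 arrays were identical.

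Probe sets naming exactly 1 gene in the platform annotation were kept, 34945 of 45101. The others were 64 controls, 932 naming several genes and 9160 with no gene listed. Each was tested with limma 3.58.1 (R 4.3.3), population as the single term, and p-values were adjusted over all 34945. All 5 populations share the estimate of the spread, with 10 residual degrees of freedom. With 3 arrays a group, an exact permutation test of a single gene cannot go below 0.1. A gene is represented by its probe set of the highest mean over the 15 arrays. Neighbours and start site windows come from RefSeq on GRCm38.p6, used for order and sequence. Python 3.11.15 with pandas 2.3.3 and matplotlib 3.10.9 made tables and plots. The fit was tested on simulated data.

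The genes, the 27 lists (496 genes, 446 measured) and the tests were chosen with earlier results of these data known, and no list is independent evidence of its direction. Named are, among called genes whose arrays did not overlap, the 12 that rose most and the 12 that fell most, up to 8 called members of each list (or the 2 of smallest p), and the genes of the gates and markers. Other members stand as examples of a count. The genes of the level series, the other probe sets given for some genes, and the runs of neighbours were chosen after their values were seen. The main fit did not pair the samples by replicate number. Same-numbered DN2 and ETP arrays correlated at -0.041 to 0.009 in their deviations from the group means, and differently numbered ones at -0.041 to 0.064. With 3 arrays a group these values cannot exclude a pairing, and a fit with the replicate number as a block is given below. Alternatives changed the arrays fitted, the probe set of a gene, the filter on low values, the scaling, the fold threshold and the fitting of the spread, and left out each array.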

Additional observations from a re-analysis of the deposited data

How the results depend on the processing

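The counts of genes that rose and fell, 240 and 242, stayed within 1.5 times under every alternative run except a test against 1.5-fold (treat). That stricter test, which asks for a change above a minimum, gave 114 higher and 118 lower genes and 191 higher and 175 lower probe sets. Leaving out each DN2 or ETP array in turn gave 176 to 208 higher and 197 to 230 lower genes, and 315 to 363 higher and 316 to 364 lower probe sets. Of the 482 called genes, 452 were called with only the 6 DN2 and ETP arrays (553 called in all), 454 with all 36 arrays and the normalization set as a term (567 called) and 394 with the mean of a gene's probe sets (466 called). With the most variable probe set 452 were called and 2 changed direction, and Ccnd3 (0.65, adjusted p = 0.748), Deptor and Mllt3 lost their call. Array weights gave 590 calls and no fold threshold 628. With the replicate number as a replicate block, 232 genes were higher and 244 lower, and 457 of the 482 were called. Deptor (adjusted p = 0.061) and E2f2 (0.0639) were not. Of the 81 named genes that were called, none changed direction. Ccnd3, Dtx1, Ighm and Mycn lost their call with the mean of probe sets, Dtx1, Procr and Spib with all 36 arrays, Klrd1 and Zfp36 with the 6 arrays, and 14 under the stricter test, Gata3 and Cdkn1a among them (adjusted p = 0.0843 for both). In the MHC class II list, 4 genes in place of 2 were lower with all 36 arrays, with the mean of probe sets and with array weights. In the natural killer list, 3 in place of 6 were lower when only probe sets above the median level were tested, which leaves out dim genes. Without DN2 replicate 3, 2 dendritic cell genes in place of 1 were lower, and without DN2 replicate 1, 2 stem cell genes in place of 1 were higher. Without DN2 replicate 1 or ETP replicate 2, 2 immediate early genes in place of 1 were lower. Of the lists given, those of B lineage, erythroid, Bcl2 family, thymic epithelium and red cell genes have medians whose sign turned under some alternatives, all near 0 as reported. When only probe sets above the median level were tested, the median was 0.91 in place of 0.42 for T cell signalling, -0.68 in place of -0.22 for stem cell, 1.31 in place of 0.40 for CD4+CD8+ thymocyte, -1.31 in place of -0.75 for MHC class II, -0.41 in place of -0.12 for macrophage and -0.85 in place of -0.30 for immediate early genes. Causes were not tested. Dim probe sets limit what can be seen of genes near the background.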

Other observations

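The genes here lie outside the lists and were chosen after their values were seen. Cldn2, Fgf3 and Cpa3 were higher in DN2 than in either ETP or DN3. Cldn2, a tight junction claudin, had levels of 8.13, 8.20 and 8.37 in DN2, against 3.73, 3.80 and 4.23 in ETP, and averaged 3.40 in DN3. Fgf3, a fibroblast growth factor, had levels of 8.08, 7.44 and 7.99 in DN2, against 4.13, 4.34 and 4.30 in ETP, and averaged 4.45 in DN3. Cpa3, carboxypeptidase A3 of mast cells and their precursors, had levels of 10.06, 9.98 and 10.19 in DN2, against 6.01, 5.32 and 6.64 in ETP, and averaged 4.47 in DN3. Esm1, a secreted proteoglycan, differed by 4.10 ± 0.13 between DN2 and ETP. The tubulin genes Tubb3 (4.83 ± 0.54) and Tubb2b (3.08 ± 0.29) were called higher in DN2. Stat5a, which acts downstream of the interleukin-7 receptor, differed by 1.67 ± 0.21 and its neighbour Stat3 by 1.03 ± 0.22.

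Several genes known to be induced by interferon were called lower in DN2. Oas3 had levels of 5.45, 5.99 and 5.34 in DN2, against 8.56, 8.68 and 8.06 in ETP. Ifi27l2a had levels of 5.72, 5.75 and 6.00 in DN2, against 8.71, 9.29 and 8.24 in ETP. Oasl2 differed by -2.75 ± 0.33, Ifi213 by -2.91 ± 0.24 and Oas2 by -1.09 ± 0.19. Gbp8 (4.95 ± 0.37) and Gbp6 (2.53 ± 0.42), of the guanylate-binding proteins that interferon also induces, were called higher in DN2. All of these were picked by their values, so they say nothing of interferon-induced genes as a group.

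Among all genes, 1 had probe sets called in both directions. For Tsc22d1, a leucine zipper factor with several transcript forms, 1 probe set averaged 10.02 in DN2 and 8.62 in ETP (1.40 higher, adjusted p = 0.00331 in limma). Another averaged 10.77 in DN2 and 11.81 in ETP (-1.04, adjusted p = 0.00164), and 2 more differed by -1.25 and -1.30. Which transcripts these probe sets detect was not analysed here.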
